A study of Mus musculus with 130 samples.

Results

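Bglap3, Olfr1388 and Asic5 are 3 genes whose median liver RNA level was higher in AXB/BXA mouse strains, which carry part of the A/J genome, than in BXD strains, which descend from C57BL/6J and DBA/2J. They were named by gene, of 35711 genes in a table from a strain panel and 35274 genes in a table from a diet study, and they were chosen by their measured levels, being lower in BXD than in AXB/BXA strains. The panel held 115 male livers from 114 inbred strains, 1 mouse per strain except 129X1/SvJ with 2 mice. All panel mice received chow for 4 weeks and then 2% carbonyl iron, or 20000 ppm, for 6 weeks. The families were 56 BXD strains, bred from C57BL/6J and DBA/2J, 20 AXB/BXA strains, bred from A/J and C57BL/6J, 4 BXH strains, bred from C57BL/6J and C3H/HeJ, and 3 CXB strains, bred from BALB/cByJ and the C57BL/6J substrain C57BL/6ByJ, which was not analysed here. By its label 1 of the BXD strains, BXD24/TyJ-Cep290<rd16>/J, carries the rd16 mutation of Cep290. The AXB and BXA sets, with 10 strains each, come from the same 2 parents. The remaining 32 mice belonged to 31 classical inbred strains, among them A/J, C57BL/6J and DBA/2J. The diet study held 15 male C57BL/6J livers, 3 per diet, on 50 ppm iron, 500 ppm iron, chow, 2% carbonyl iron, or 2% carbonyl iron with cellulose as the fibre source. The labels give no age for any mouse, no feeding time for the diet study and no iron content for its chow.

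A recombinant inbred strain is made by crossing 2 inbred parents and inbreeding their descendants, so that each locus ends fixed for the allele of one parent. A gene whose level differs between the parents because of its own locus then falls into a low and a high class among such strains. Bglap3 encodes an osteocalcin-related protein, a relative of the bone matrix protein osteocalcin whose glutamate residues are carboxylated in a vitamin K dependent step to bind calcium. Asic5 encodes the bile acid-sensitive ion channel, a sodium channel of the acid-sensing and epithelial sodium channel family found in bile duct epithelium. Olfr1388 belongs to the olfactory receptors, the large family of G protein-coupled receptors that detect odorants in the nose.

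Bglap3 lies on chromosome 3 from 88368616 to 88372743 on the minus strand of GRCm38, next to its 2 near-copies Bglap2 and Bglap, the osteocalcin genes proper. The 3 coding sequences are shown because reads of one gene can be assigned to another only where the letters agree, and capitals mark the 13 positions at which any of them differ. They were read from the GENCODE transcripts, 5′ to 3′, and span chromosome 3 from 88368759 to 88369536 for Bglap3.
Bglap3: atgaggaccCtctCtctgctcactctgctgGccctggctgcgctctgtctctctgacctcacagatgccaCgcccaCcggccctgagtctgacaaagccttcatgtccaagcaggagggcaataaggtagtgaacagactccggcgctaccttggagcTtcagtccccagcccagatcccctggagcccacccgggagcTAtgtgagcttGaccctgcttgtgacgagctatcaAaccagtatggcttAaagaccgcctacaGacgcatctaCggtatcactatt
Bglap2: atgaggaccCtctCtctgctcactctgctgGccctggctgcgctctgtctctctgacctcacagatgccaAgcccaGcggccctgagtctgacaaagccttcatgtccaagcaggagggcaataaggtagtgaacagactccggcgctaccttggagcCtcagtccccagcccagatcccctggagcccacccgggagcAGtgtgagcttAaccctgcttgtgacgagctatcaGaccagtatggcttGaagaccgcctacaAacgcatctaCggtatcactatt
Bglap: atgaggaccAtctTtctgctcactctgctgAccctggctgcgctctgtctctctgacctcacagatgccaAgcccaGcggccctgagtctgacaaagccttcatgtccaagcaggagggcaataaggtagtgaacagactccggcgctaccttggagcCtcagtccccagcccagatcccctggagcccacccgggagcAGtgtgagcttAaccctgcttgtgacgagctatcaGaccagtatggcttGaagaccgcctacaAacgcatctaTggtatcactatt
Each coding sequence was 285 bases long. Bglap3 differed from Bglap2 at 9 bases, an identity of 96.8%, and from Bglap at 13 bases, an identity of 95.4%. Bglap2 and Bglap differed from each other at only 4 bases. Despite the near identity, Bglap2 had 0 counts in all 115 panel libraries, and Bglap had 0 counts in 107 of them, with at most 1.16 counts in any other.

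Over whole transcripts, 604 of the 2682 distinct 31-base words of Bglap3, or 22.5%, also occurred in transcripts of other genes. Bglap2 held 9.17% and Bglap 7.31% of the words of Bglap3, whose counts were whole in 100 of 115 panel libraries. Olfr1388, on chromosome 11 from 49436624 to 49446103 on the plus strand, shared 836 of 3004 words, or 27.8%, with 16.3% of its words in the predicted gene Gm43041. Its expected counts were whole numbers, within 0.001 counts, in only 1 of 115 panel libraries, so its level depended on how the quantifier divided shared reads and is uncertain. Asic5, on chromosome 3 from 81982290 to 82021233 on the plus strand, shared 0 of 2300 words, and its counts were whole in all 115 libraries. Asic5 and Bglap3 are 6.35 Mb apart. No other annotated gene overlapped any of the 3 gene bodies.

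The shallowest panel library held 9.41 M counts and the deepest 20.6 M, and diet libraries lay between 10.4 and 20.4 M. Levels are CPM, counts relative to library size scaled with TMM factors, unless TPM, which also corrects for transcript length, is named. The library labelled BXD65/RwwJ had 3.90 CPM over 4 Y-linked genes, against at least 118 CPM in every other library, although the label gives a male. Without it the family differences given further on were -4.21 for Bglap3, -3.05 for Olfr1388 and -2.53 for Asic5 on the log2 scale. The Cep290 mutant strain lay below the BXD median for each gene, at 0.162 CPM of Bglap3, 0.647 CPM of Olfr1388 and 0.566 CPM of Asic5. In the diet study 1 of the mice on 500 ppm stood apart from the other 2 on the first principal component, at 0.78 against -37.2 and -35.0, and had the deepest library. Markers of hepatocytes, the main liver cell, summed to between 52020 and 158062 CPM in the panel.

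Bglap3 was high in A/J and low in C57BL/6J and DBA/2J. The A/J liver had 17.9 CPM from 204 counts, the panel C57BL/6J liver 1.04 CPM from 12 counts, and the DBA/2J liver 0.57 CPM from 6 counts. A/J thus exceeded C57BL/6J 17.2-fold, with a 95% interval of 9.64 to 33.8 that covers counting error in these 2 libraries only, since each parent is 1 mouse. The 56 BXD strains had a median of 0.414 CPM, from 0.0735 in BXD48/RwwJ to 2.15 in BXD39/TyJ. The 20 AXB/BXA strains ranged from 0 to 24.98 CPM with a median of 11.1, and no strain lay between 0.728 and 8.32 CPM. AXB4/PgnJ and AXB8/PgnJ had 0 counts, which allows up to 0.241 and 0.275 CPM at a floor of 3 counts.

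Each strain was counted as nearer to A/J or to C57BL/6J by the midpoint of the 2 parental libraries on the log2 CPM scale with a prior count of 2. For Bglap3, 12 of 20 AXB/BXA strains lay nearer to A/J, with a median of 15.2 CPM, and the other 8 had a median of 0.325 CPM. The strain nearest to the midpoint from above was BXA12/PgnJ at 8.32 CPM and the nearest from below was BXA1/PgnJ at 0.728 CPM. All 56 BXD and all 4 BXH strains lay nearer to C57BL/6J. Among the CXB strains CXB2/ByJ with 19.4 CPM and CXB12/HiAJ with 17.2 CPM lay on the A/J side, as did their parent BALB/cByJ with 22.4 CPM, while CXB7/ByJ had 0.097 CPM.

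High Bglap3 was not a property of A/J alone. Of 29 other classical strains, 9 lay on the A/J side, and 7 of these exceeded A/J. SWR/J had 76.5 CPM, NON/ShiLtJ 68.6 CPM and AKR/J 58.9 CPM. NOR/LtJ, NOD/ShiLtJ, FVB/NJ and BALB/cByJ lay between 22.4 and 25.6 CPM, SEA/GnJ had 17.5 CPM and BALB/cJ had 6.60 CPM. The next strain below was BXD39/TyJ with 2.15 CPM, so that the 24 high strains were separated from the 90 low ones by a gap in all families.

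**Figure D1:**
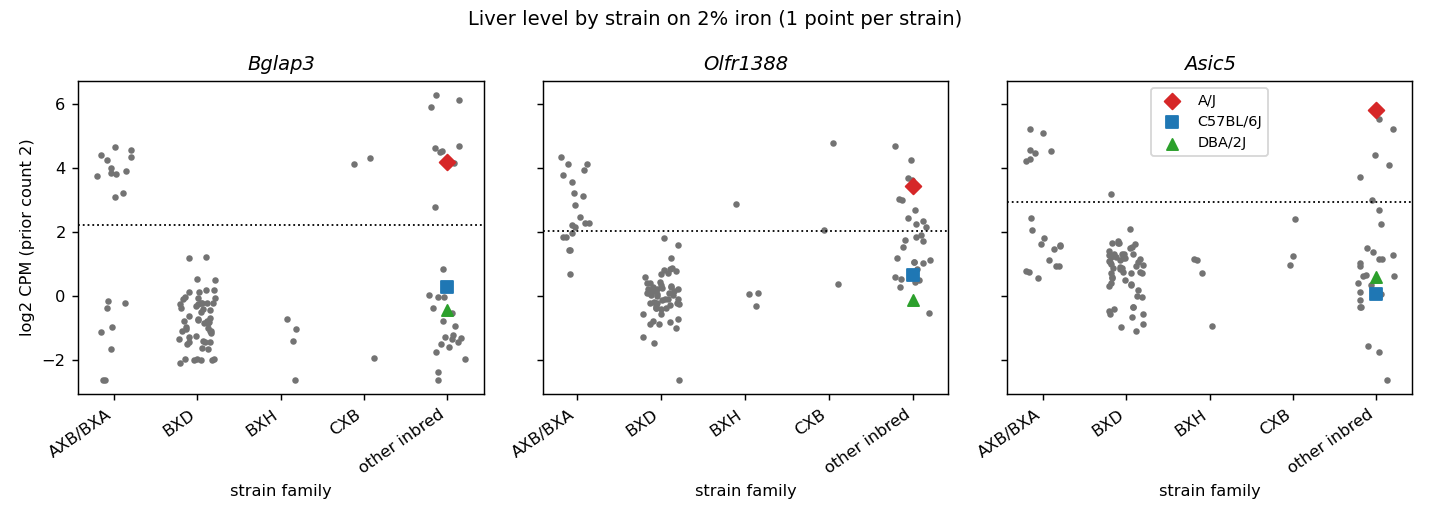
Log2 CPM with a prior count of 2 of Bglap3, Olfr1388 and Asic5 by strain family on 2% iron, 1 point per strain, with A/J, C57BL/6J and DBA/2J marked and a dotted line at the midpoint of A/J and C57BL/6J. AXB/BXA strains split into a high and a low class for Bglap3 and Asic5 and form a continuous range for Olfr1388, while the BXD strains lie below the line except 1 strain for Asic5.

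Asic5 had its highest level of all 114 strains in A/J, at 55.9 CPM from 636 counts. C57BL/6J had 0.869 CPM from 10 counts and DBA/2J 1.33 CPM from 14 counts. The ratio of A/J to C57BL/6J was 64.4, with a counting interval of 34.8 to 135. The BXD strains had a median of 1.68 CPM, from 0.307 in BXD73/RwwJ to 8.90 in BXD38/TyJ, and BXD38/TyJ was the only 1 of 56 nearer to A/J. With 77 counts, BXD38/TyJ lay above both BXD parents, and the next BXD strain, BXD13/TyJ, had 4.05 CPM. The log2 CPM of BXD38/TyJ was 3.18, against a midpoint of 2.93.

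Among the AXB/BXA strains 7 of 20 lay nearer to A/J for Asic5, from 18.4 CPM in AXB13/PgnJ to 36.97 CPM in BXA1/PgnJ. The 13 others reached at most 5.25 CPM, in AXB19a/PgnJ, with a median of 2.57 CPM. All 7 high strains stayed below A/J itself. CBA/J had 45.9 CPM, the 2 mice of 129X1/SvJ had 28.2 and 48.7 CPM, LP/J had 20.97 CPM, C3H/HeJ had 16.95 CPM and I/LnJ had 13.04 CPM. In total 6 of 29 other classical strains lay on the A/J side, the sixth being BALB/cByJ at 7.79 CPM. BALB/cByJ lay just above the midpoint, at a log2 CPM of 2.99 against 2.93. All 4 BXH strains were low, between 0.355 and 2.04 CPM, although their parent C3H/HeJ was high. NZB/BlNJ had 0 counts of Asic5, which allows up to 0.243 CPM.

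Olfr1388 showed a graded pattern. A/J had 10.6 CPM from 121 expected counts, C57BL/6J 1.39 CPM from 16.4 expected counts and DBA/2J 0.757 CPM from 8.40. A/J exceeded C57BL/6J 7.65-fold, with a counting interval of 4.53 to 13.8. The BXD strains had a median of 0.853 CPM and a maximum of 3.34 CPM in BXD42/TyJ, all on the C57BL/6J side. The AXB/BXA strains ran from 1.44 CPM in BXA26/PgnJ to 19.8 CPM in AXB15/PgnJ, and every one of them exceeded the BXD median.

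By the midpoint 14 of 20 AXB/BXA strains lay nearer to A/J for Olfr1388. The classes were not separate, since AXB5/PgnJ at 4.28 CPM lay just above the midpoint and BXA12/PgnJ at 3.74 CPM just below it. Within 0.5 on the log2 scale of the midpoint lay 8 of the 20 strains, against 0 for Bglap3 and 1 for Asic5. AXB15/PgnJ, BXA4/PgnJ, BXA16/PgnJ, BXA14/PgnJ, AXB19b/PgnJ and AXB19/PgnJ, or 6 of 20, exceeded A/J. The highest strain of the panel was CXB7/ByJ at 27.3 CPM, above its parent BALB/cByJ at 7.88 CPM. Next came RIIIS/J with 25.5 CPM and, further down, LG/J with 18.8 CPM, MRL/MpJ with 12.7 CPM and NZB/BlNJ with 11.97 CPM.

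Per unit of transcript length the A/J liver held most of Asic5, with 48.6 TPM, followed by Bglap3 with 9.50 TPM and Olfr1388 with 3.68 TPM. In C57BL/6J the 3 levels were 0.574, 0.808 and 0.484 TPM. The order of the 3 genes thus differed between the parents, but in C57BL/6J the levels rested on 10 to 16.4 counts each.

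The family contrast that led to the choice of the genes is given as a description. BXD minus AXB/BXA was -4.21 ± 0.33 for Bglap3, -3.06 ± 0.20 for Olfr1388 and -2.53 ± 0.27 for Asic5 on the log2 scale (SE, n = 56 and 20 strains). Over all 13794 genes tested, edgeR called 1606, or 11.6%, and 5.02% were lower in BXD. Ranked by the size of the fall, Bglap3 was in place 1, Olfr1388 in place 3 and Asic5 in place 7.

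The 3 genes were not high in the same AXB/BXA strains. Only AXB13/PgnJ, AXB15/PgnJ and BXA13/PgnJ were on the A/J side for all 3 genes, 7 strains for 2 genes, 10 strains for 1 gene and 0 strains for none. Bglap3 and Asic5, 6.35 Mb apart on chromosome 3, were on opposite sides in 11 of 20 strains. Of these, 8 were high for Bglap3 alone and 3, namely AXB4/PgnJ, BXA1/PgnJ and BXA16/PgnJ, for Asic5 alone. Bglap3 and Olfr1388 were on opposite sides in 12 strains, and Olfr1388 and Asic5 in 11. In the 29 other classical strains the corresponding counts were 13, 12 and 15. Only BALB/cByJ among those 29 was on the A/J side for Bglap3 and Asic5 together, and for Asic5 it lay just above the midpoint.

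**Figure D2:**
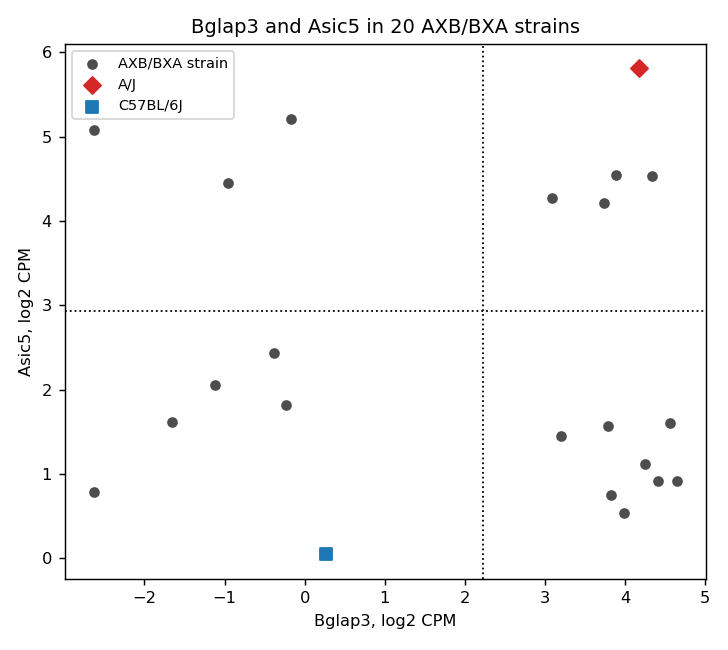
Log2 CPM of Bglap3 against Asic5 in the 20 AXB/BXA strains, with the 2 parents and dotted lines at the parental midpoints. All 4 quadrants are filled, with 4 strains high for both, 8 for Bglap3 alone, 3 for Asic5 alone and 5 for neither.

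AXB19/PgnJ and its substrains AXB19a/PgnJ and AXB19b/PgnJ share their origin and are not separate draws. They agreed in class for all 3 genes, with Bglap3 between 0.157 and 0.690 CPM, Asic5 between 2.90 and 5.25 CPM and Olfr1388 between 8.59 and 13.6 CPM. Their spread gives the only view of variation between closely related mice of this family.

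AXB and BXA strains were then compared, a contrast that took no part in the choice of the genes. None of the 3 genes differed at an adjusted p under 0.05 in edgeR's quasi-likelihood test. AXB19/PgnJ and its substrains were counted as separate strains in this test. Under 6 alternatives, 1 of which left out AXB19a/PgnJ and AXB19b/PgnJ, none of the 3 genes passed either. AXB minus BXA was -0.72 for Bglap3, with a 95% interval from -2.43 to 0.99, 0.22 for Olfr1388, from -0.71 to 1.15, and -0.25 for Asic5, from -1.72 to 1.22, on the log2 scale. Each set held high and low strains, 4 and 8 of 10 for Bglap3, 9 and 5 of 10 for Olfr1388 and 3 and 4 of 10 for Asic5, AXB given before BXA. In this contrast 0 of 12942 genes, or 0%, were called by edgeR and by DESeq2 or limma, and 404 genes had an unadjusted p under 0.05.

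The genes whose levels most resembled each member over the 20 AXB/BXA strains were found by Pearson's r of log2 CPM, as a description of strains that share 2 parental genomes. For Bglap3 the first was Prrg1, on chromosome X, with r = 0.966, and it encodes a proline-rich transmembrane protein with a Gla domain, the same vitamin K dependent module that osteocalcin relatives carry. Prrg1 had 10.3 CPM in A/J, 1.39 CPM in C57BL/6J and 1.14 CPM in DBA/2J. In the 24 strains of the whole panel on the A/J side for Bglap3 it ranged from 5.96 to 46.9 CPM, and in the 90 others from 0.481 to 2.48 CPM, without overlap. Of these strains, 12 of the 24 and 8 of the 90 are the AXB/BXA strains by which Prrg1 was picked. The share of all genes that separate the 2 classes was not counted. SWR/J, NON/ShiLtJ and AKR/J, the 3 highest strains for Bglap3, had 46.9, 37.7 and 36.2 CPM of Prrg1. In the family contrast BXD minus AXB/BXA was -2.24 ± 0.18 for Prrg1 (SE), in place 9 by the size of the fall, a description since Prrg1 was singled out by its likeness to Bglap3. Over all 114 strains, the 20 AXB/BXA strains included, r was 0.901, the highest of all genes, with a Spearman rho of 0.479. Prrg1 transcripts shared 2 of the 2682 words of Bglap3.

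Further genes similar to Bglap3 were Gm1840, a processed pseudogene, with r = 0.857, the exocyst subunit Exoc1 with 0.791 and the transporter Abcc12 with 0.779. Over all 114 strains their r lay between 0.081 and 0.215. Neither Prrg1 nor any of these 3 genes lies on chromosome 3.

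For Olfr1388 the most similar genes were Adarb2, an RNA-editing enzyme homologue on chromosome 13, with r = 0.872, and Vmn2r97, a vomeronasal pheromone receptor on chromosome 17, with r = 0.848. They were also the 2 most similar genes over all 114 strains, with r = 0.820 and 0.853. Those strains include the AXB/BXA strains by which both genes were picked. CXB7/ByJ had 15.7 CPM of Adarb2 and 38.4 CPM of Vmn2r97, RIIIS/J 9.39 and 29.8 CPM and LG/J 5.32 and 32.3 CPM. A/J had 3.25 CPM of Adarb2 and 13.6 CPM of Vmn2r97, and C57BL/6J had 0.869 and 5.56 CPM. Transcripts of Adarb2 shared 160 words with the opposite strand of Olfr1388 and those of Vmn2r97 shared 20, and the part of shared reads in these likenesses was not tested. Hes7, Acsl3 and Vmn2r100 followed with r between 0.693 and 0.729, and over 114 strains Acsl3 had r = -0.40.

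For Asic5 the most similar gene was Rps3a2, a processed ribosomal protein pseudogene on chromosome 14, with r = 0.888. It ranged from 31.4 to 59.4 CPM in the 7 AXB/BXA strains high for Asic5 and from 0 to 1.66 CPM in the other 13. These are the strains by which Rps3a2 was picked. Over the whole panel it reached 81.4 CPM among strains low for Asic5. A/J had 43.1 CPM and C57BL/6J 0. The ribosomal protein gene Rps3a1, named after the values were seen, lies on chromosome 3 from 86137940 to 86142702, 4.12 Mb from Asic5. B3galnt1, a globoside synthesis enzyme, and Cd1d2, a CD1 family gene annotated as a polymorphic pseudogene, had r = 0.814 and 0.795 and lie on chromosome 3 as well, 12.4 and 4.97 Mb from Asic5. The likeness was lower over all strains. DBA/2J had 33.7 CPM of Rps3a2, and over 114 strains r was 0.327 for Rps3a2, 0.050 for B3galnt1 and 0.219 for Cd1d2. Acot12, an acetyl-CoA hydrolase, and Syt15, a synaptotagmin, completed the 5 genes with r = 0.661 and 0.659.

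**Figure D3:**
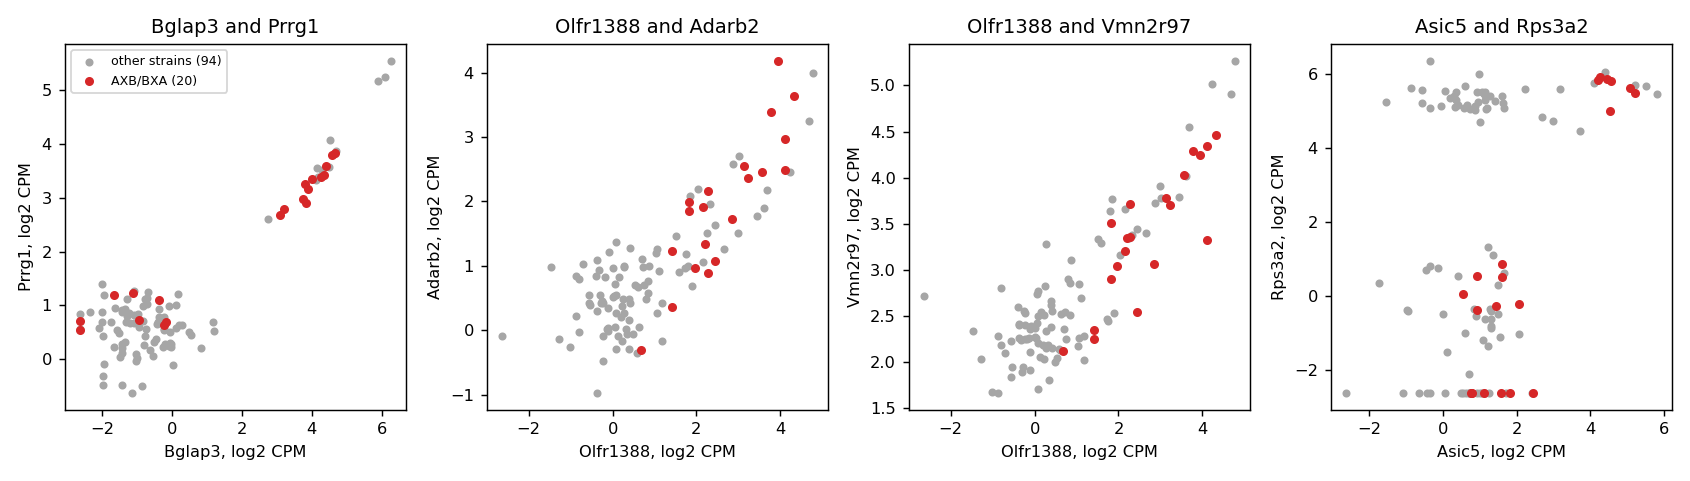
Log2 CPM of Bglap3, Olfr1388 or Asic5 against genes with a similar pattern, 1 point per strain, AXB/BXA strains in red and the 94 others in grey. Prrg1, picked by its likeness to Bglap3 in the AXB/BXA strains, separates the 24 strains high for Bglap3 from the 90 others. Rps3a2, picked likewise for Asic5, reached 81.4 CPM among strains low for Asic5.

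Genes next to the 3 members were examined in the same family contrast. Of 11 annotated genes within 500 kb of Asic5, 5 passed the low-count filter and 0 were called by edgeR. Its closest tested neighbour Tdo2, the hepatic enzyme that opens the tryptophan ring, lies 6.09 kb away and differed by -0.31 ± 0.12 (SE, adjusted p = 0.0807 by edgeR). Gucy1b1, Ctso and Gucy1a1, within 71.2 kb, lay between -0.09 and 0.12, and Map9 was 0.64 higher in BXD with an adjusted p of 0.0539 by edgeR. Of these 5 neighbours 3 had an unadjusted p under 0.05, as had 3472 of all 13794 genes tested. DESeq2 called 1, namely Map9 (DESeq2 adjusted p = 0.0305), and limma called 0 on log2(TPM + 1) and 0 on log2(TPM + 0.1). The share of all genes called by DESeq2 is not given.

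Within 500 kb of Olfr1388, 16 of 45 annotated genes were tested and edgeR called 0, with differences between -0.14 and 0.23. At an unadjusted p under 0.05 there were 1, DESeq2 called 0 and limma 0. Its nearest tested neighbour, the olfactory receptor Olfr1385, differed by 0.09 ± 0.07 (SE). Around Bglap3, 31 of 68 genes were tested and 6 were called, 3 in each direction, where 11.6% of all genes were called. At an unadjusted p under 0.05 there were 13 of the 31, and DESeq2 called 6 and limma 3. The called neighbours were Smg5 at -0.18, Ubqln4 at -0.13, Gon4l at -0.33, Naxe at 0.16, Gpatch4 at 0.28 and Gm10704 at 2.55. Smg5 is a nonsense-mediated decay factor whose gene ends 6.28 kb from Bglap3. Gm10704 aside, the tested neighbours of all 3 genes differed by less than 1 on the log2 scale. Between AXB and BXA edgeR called 0 of 48 tested neighbours of the 3 genes, with 2 at an unadjusted p under 0.05 and 0 by DESeq2.

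**Figure D4:**
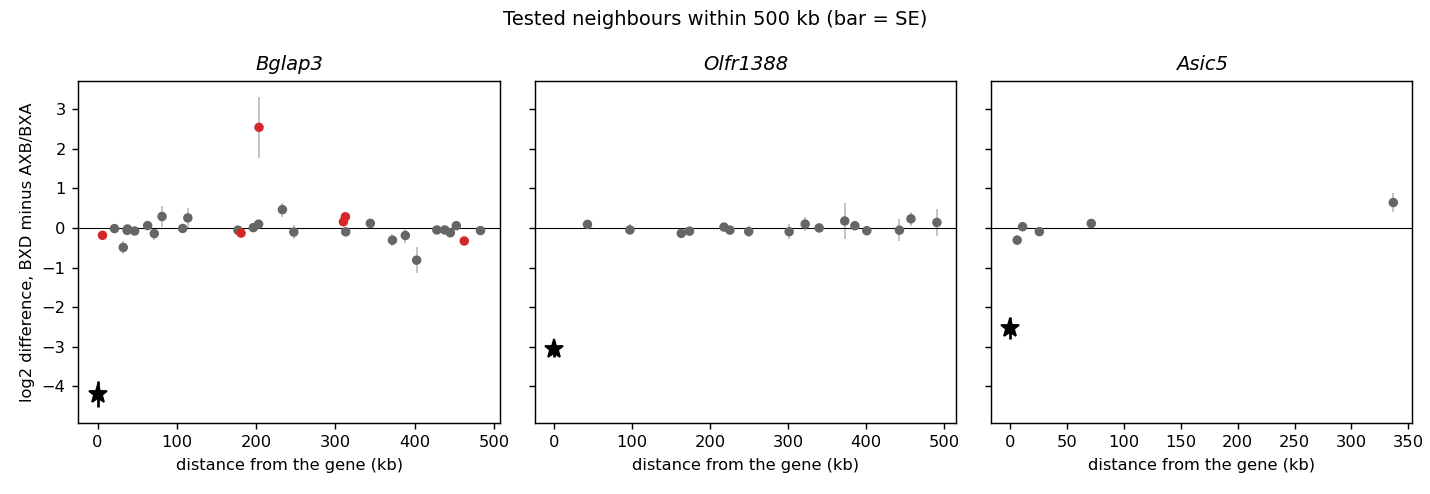
Log2 difference between BXD and AXB/BXA strains against distance in kb for the tested genes within 500 kb of each member, with SE bars, called genes in red and the member as a star at 0 kb. The members lie at -4.21, -3.06 and -2.53, and the neighbours other than Gm10704 lie within 1 of 0.

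The diet study shows the 3 genes on different diets in a single strain, C57BL/6J, where all 3 are low. Asic5 was lower on 2% iron than on 50 ppm, 500 ppm or chow, and the labels give no iron content for chow. It had 0.766, 1.16 and 1.32 CPM in the 3 mice on 2% iron, and 1.12, 1.14 and 1.16 CPM in the 3 mice on 2% iron with cellulose. The mice on 500 ppm had 2.25, 4.11 and 4.93 CPM, those on 50 ppm 2.82, 3.05 and 4.62 CPM and those on chow 5.02, 6.41 and 7.28 CPM. No mouse on 2% iron reached the level of any mouse on the 3 other diets. What share of all genes separates these mice without overlap was not counted.

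Asic5 fell by 1.68 on the log2 scale on 2% iron against 50 ppm (SE 0.33, n = 3 per group, edgeR adjusted p = 0.00518), to 1.08 ± 0.29 from 3.49 ± 0.98 CPM (SD). Against 500 ppm it fell by 1.75 (SE 0.33, edgeR adjusted p = 0.00434), and by 2.04 without the mouse on 500 ppm that stood apart. Against chow it fell by 2.51 (SE 0.32, edgeR adjusted p = 2.17e-04), from 6.24 ± 1.14 CPM. In these contrasts edgeR called 15.7%, 11.3% and 22.8% of 13560 genes, and 7.17%, 4.75% and 10.9% were lower on 2% iron. The 3 contrasts share the 2% mice, and their values are given side by side only.

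Among 50 ppm, 500 ppm and chow Asic5 did not pass the test in the contrasts made. It differed by 0.07 between 500 ppm and 50 ppm, with a 95% interval from -0.55 to 0.70 on the log2 scale (edgeR adjusted p = 1). In that contrast edgeR called 0 genes, or 0%, with 428 at an unadjusted p under 0.05, and DESeq2 called 2. Chow was 0.83 higher than 50 ppm, with an interval from 0.22 to 1.44 (edgeR adjusted p = 0.303), where 0.391% of genes were called. The 3 mice on chow all lay above the 3 on 50 ppm. How many of all genes separate these mice in the same way was not counted. Cellulose in the 2% diet made a difference of 0.07, with an interval from -0.72 to 0.87 (edgeR adjusted p = 0.959), where 0.0811% were called.

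**Figure D5:**
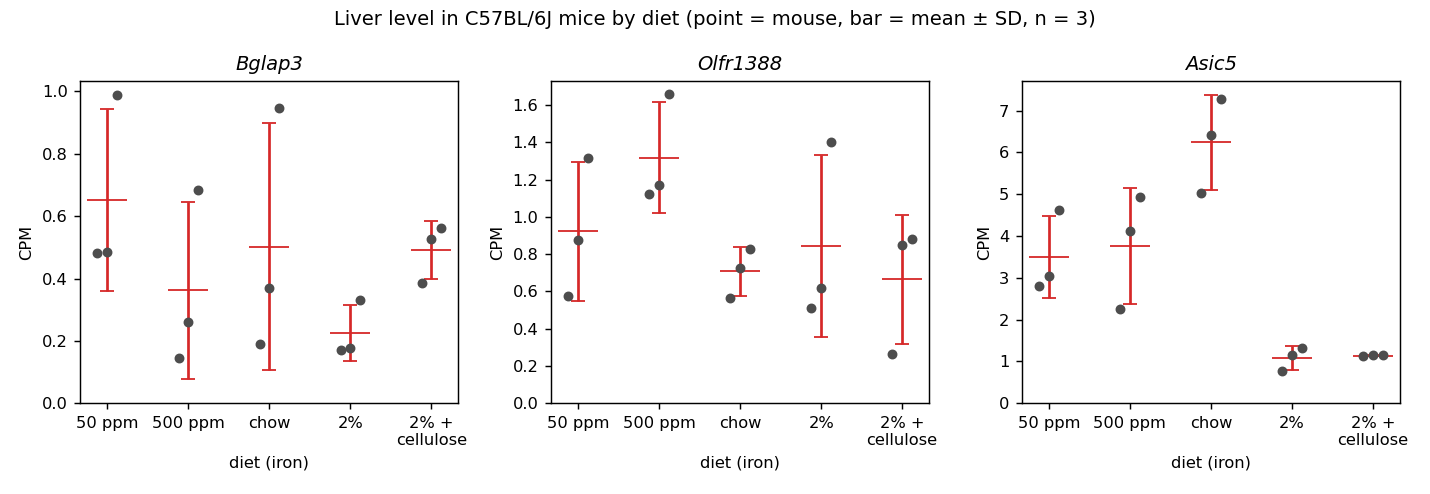
CPM of the 3 genes in C57BL/6J livers by diet, 1 point per mouse with the mean and SD of 3 mice in red. All 6 mice on 2% iron lie between 0.766 and 1.32 CPM for Asic5, below every mouse on 50 ppm, 500 ppm or chow. The share of all genes that separate in this way was not counted. For Olfr1388 the mice on 2% iron without cellulose overlap with those on each other diet.

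The dietary range of Asic5 was small beside that between strains. On chow, the highest C57BL/6J mouse had 7.28 CPM, against 55.9 CPM in the A/J mouse on 2% iron, in tables scaled separately. The panel C57BL/6J mouse, at 0.869 CPM on 2% iron, lay within the 0.766 to 1.32 CPM of the C57BL/6J mice on that diet in the diet study. No A/J mouse on a diet with less iron was analysed here.

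Markers of other cell types moved with the 2% diet. The 4 macrophage markers Adgre1, Clec4f, Cd68 and Csf1r all rose against 50 ppm, by 1.38 to 1.62 on the log2 scale, and their summed level was 290 to 309 CPM on 2% iron against 75.2 to 125 CPM on 50 ppm. Of 8 markers of bile duct epithelium, 5 were tested and 0 were called against 50 ppm or 500 ppm, and Tspan8 alone was called, 2.28 higher, against chow. The summed bile duct markers were 26.6 to 28.8 CPM on 2% iron, 29.2 to 35.5 CPM on 50 ppm, 30.7 to 33.1 CPM on 500 ppm and 25.8 to 35.5 CPM on chow. The 6 exocrine pancreas markers summed to 3.88 to 5.19 CPM on 2% iron, 5.83 to 8.86 CPM on 50 ppm, 6.14 to 7.57 CPM on 500 ppm and 8.52 to 12.5 CPM on chow, so that they were lower on 2% iron without overlap, as Asic5 was. Nearly all of this sum was the elastase gene Cela1, the only 1 of the 6 tested, which fell by 1.18 against chow (edgeR adjusted p = 0.00251) and was not called against 50 ppm or 500 ppm. The digestive enzyme genes Cpa1, Pnlip and Prss2 had 0 counts in all 15 diet libraries, and Cel and Ctrb1 in 14 of them.

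Hepatocyte markers summed to 88389 to 93399 CPM on 2% iron, above the 72783 to 84745 CPM on 50 ppm and the 69236 to 84000 CPM on 500 ppm, and overlapped with the 79746 to 91527 CPM on chow. Of the 6 hepatocyte genes, Apoa1 and Serpina1a fell against each of these diets and 0 rose. Erythroid markers summed to 177 to 266 CPM on 2% iron, above the 59.7 to 97.7 CPM on 50 ppm, 56.8 to 110.0 CPM on 500 ppm and 97.5 to 122 CPM on chow. The haemoglobin genes Hba-a1 and Hbb-bt rose and the haem synthesis enzyme Alas2 fell against each of these diets. In whole liver, fewer cells of a type and less RNA per cell cannot be told apart, and the part of cell makeup in the fall of Asic5 was not tested.

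Olfr1388 passed the test in none of the 6 diet contrasts. The 3 mice on 500 ppm, at 1.12, 1.17 and 1.66 CPM, lay above those on chow, at 0.566 to 0.830 CPM. They also lay above those on 2% iron with cellulose, at 0.264 to 0.881 CPM. These 2 pairs of diets were not among the 6 contrasts, and the share of all genes separated in this way was not counted. Among the contrasts the largest difference of Olfr1388 was -0.61 on 2% iron against 500 ppm, with a 95% interval from -1.59 to 0.36 (edgeR adjusted p = 0.426). The 15 mice lay between 0.264 and 1.66 CPM, and the highest of the 5 group means, 1.32 ± 0.30 CPM (SD, n = 3) on 500 ppm, rested on 12.9 to 23.5 expected counts per mouse. Bglap3 had 2 to 14 counts per mouse, was left out by the low-count filter and was not tested. Its levels were 0.170 to 0.330 CPM on 2% iron, 0.386 to 0.561 CPM on 2% iron with cellulose, 0.144 to 0.684 CPM on 500 ppm, 0.482 to 0.988 CPM on 50 ppm and 0.189 to 0.946 CPM on chow. The panel C57BL/6J mouse on 2% iron, at 1.04 CPM from 12 counts, lay above all of these, in tables scaled separately. The ratio of A/J to C57BL/6J and the midpoint for Bglap3 rest on that mouse and the A/J mouse.

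Of the genes most similar to the members, Adarb2 differed by -1.16 ± 0.32 on 2% iron against 50 ppm (SE, edgeR adjusted p = 0.0244), where 15.7% of all genes were called. Against 500 ppm it differed by -0.28 and against chow by -0.70, without passing the test (edgeR adjusted p = 0.658 and 0.136). Between 500 ppm and 50 ppm Adarb2 differed by -0.88, which did not pass the test either. Prrg1 differed by -0.96 ± 0.32 on 2% iron against 50 ppm but did not pass the test (edgeR adjusted p = 0.0566). B3galnt1, similar to Asic5 over strains, moved the other way from it and was 1.59 ± 0.44 higher on 2% iron than on 500 ppm (edgeR adjusted p = 0.0318). It was 1.40 higher than on chow (edgeR adjusted p = 0.0356) and was not called against 50 ppm, at 1.22 (edgeR adjusted p = 0.0765). Exoc1 was 0.32 higher than on chow (edgeR adjusted p = 0.0347) and was not called against 50 ppm or 500 ppm. Of all genes, 11.3% were called against 500 ppm and 22.8% against chow.

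Related genes were examined in lists of the same pathways. Of 16 genes for vitamin K dependent proteins and their carboxylation, 14 were tested between BXD and AXB/BXA. Coagulation factor F10 was higher in BXD and Prrg2 lower, at log2 differences of 0.20 and -0.17 (edgeR adjusted p = 0.00482 and 0.0468), and the other 12 were not called, so that 2 of 14 were called where 11.6% of all genes were. Prrg1, described above with a larger difference, was not in the list. The list median was 0.02, against 0.01 over all genes. On 2% iron against 50 ppm, protein C gene Proc, Proz and the vitamin K recycling enzyme Vkorc1 fell by 0.33, 0.35 and 0.33. These were 3 of 13 tested, and 0 rose, where 7.17% of all genes fell and 15.7% were called. The list median was 0.06, against 0.01 over all genes. Against 500 ppm the ligand Gas6 and protein S gene Pros1 rose, by 0.62 and 0.31, so that 2 of 13 were called where 11.3% of all genes were. Against chow Gas6 rose by 0.85, and Proc, Proz, Vkorc1 and the carboxylase gene Ggcx fell, so that 5 of 13 were called, 4 of them lower, where 22.8% of all genes were called and 10.9% fell.

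Of the 7 other acid-sensing and epithelial sodium channel genes only Asic1 and Scnn1a were tested. Neither was called between the families, and Scnn1a differed by -0.23. Scnn1a fell by 0.65 on 2% iron against chow (edgeR adjusted p = 0.0206), where 10.9% of all genes fell, and neither gene was called against 50 ppm or 500 ppm.

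Olfr1388 ranked 36 of 1134 olfactory receptor genes by mean level in the panel, at 3.59 CPM, and 106 receptors averaged at least 1 CPM. Its panel median was lower, at 1.35 CPM, since the strains with high levels raise the mean. Without Olfr1388, 153 receptors were tested between BXD and AXB/BXA and 8 were called, against 11.6% of all genes, 7 higher and 1 lower in BXD, with a median of 0.07. The 1 lower receptor was Olfr784, at -0.39. Of the signalling genes of olfactory neurons Adcy3 and Gnal were tested and neither was called.

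Summed cell type markers overlapped between the classes of AXB/BXA strains. Bile duct markers summed to 15.998 to 40.8 CPM in the 7 strains high for Asic5 and 17.5 to 30.4 CPM in the 13 others. Osteoblast markers summed to 12.8 to 50.1 CPM in the 12 strains high for Bglap3 and 20.5 to 43.5 CPM in the 8 others, and the list includes Alpl, a phosphatase that liver expresses too, with a panel median of 33.6 CPM. The osteoblast genes Sp7 and Ibsp had 0 counts in 102 and 109 of 115 panel libraries. Haemoglobin and other erythroid markers had medians of 30.1 CPM in strains high for Bglap3 and 127 CPM in the others, with overlapping ranges from 3.99 to 168 and from 49.02 to 492 CPM, and their part in the split was not tested. Macrophage markers summed to 155 to 350 CPM in the 14 strains high for Olfr1388 and 255 to 430.6 CPM in the 6 others, and their part was not tested either.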

How the data were processed

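Liver RNA-seq of male mice was deposited as 2 tables, one per study, of expected counts and of TPM per gene. The authors deposited expected counts, which are estimates and need not be whole, and TPM, which the authors scaled for transcript length and depth. The submitters' processing notes name kallisto 0.46 and the mm10 build, without their roles. Libraries were strand-specific and made from mRNA, per the labels' protocols. Expected counts were rounded to whole numbers and tested with edgeR 4.0.16 in R 4.3.3 by the quasi-likelihood test with TMM factors, after its low-count filter, with Benjamini-Hochberg adjustment over all genes tested and a threshold of 0.05. The design had foreseen plain counts. The tables were never pooled. DESeq2 1.42.0, limma 3.58.1 on log2(TPM + 1) and log2(TPM + 0.1), other filters and left-out libraries were alternatives. The edgeR script was tested on simulated data.

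Families were compared over strains, mostly 1 mouse each, and diets over 3 mice each. P-values therefore measure the spread between these strains or mice. Replicate numbers follow deposit order. Positions come from GENCODE M21 on GRCm38, which matched 35691 of 35711 identifiers in the panel and 34924 of 35274 in the diet table. Genes named were the members, their listed pathway genes and markers, tested neighbours within 500 kb, and the 5 genes with the highest r per member. One of these genes is not reported here. The members and lists were chosen with earlier results of these data known. Intervals and floors of 3 counts cover counting error only.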

Additional observations from a re-analysis of the deposited data

Results flagged for a closer look

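Olfr1388 in the strain BXH10/TyJ lay far from the other 3 BXH strains. BXH10/TyJ had 7.18 CPM, and the others had between 0.633 and 0.900 CPM. The parents C57BL/6J and C3H/HeJ had 1.39 and 3.14 CPM, so BXH10/TyJ exceeded both. It was the only such library among 9 groups of libraries examined, and chance gives about 1 in 20 groups.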

How the results depend on the processing

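The fall of Asic5 on 2% iron against 50 ppm, 500 ppm and chow passed the test under all 21 alternatives that gave a value in each contrast. A minimum of 10 counts in every library left Asic5 untested. Leaving out 1 library at a time, its log2 difference lay between -1.85 and -1.43 for 50 ppm, between -2.04 and -1.52 for 500 ppm and between -2.68 and -2.32 for chow, with the highest edgeR adjusted p at 0.0293. Differences that had not passed the test changed sign in this way for Asic5 with cellulose (-0.12 to 0.24) and between 500 and 50 ppm (-0.17 to 0.36). They did so for Olfr1388 on 2% iron against 50 ppm (-0.72 to 0.23), against chow (-0.33 to 0.51) and with cellulose (-0.59 to 0.25), and the cause was not tested. No paired analysis was possible because the replicate numbers follow deposit order.

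By limma on log2(TPM + 1) the family difference of Olfr1388 was -1.35 and those of Bglap3 and Asic5 were -1.70 and -1.34, on a scale that understates low genes. Called neighbours numbered 3 in place of 6 by limma at both pseudocounts and within 250 kb. Genes called between the families were 911 and 910 by limma against 1606. By limma they were 1093 and 1190 against 2127 for 50 ppm, 789 and 895 against 1538 for 500 ppm, and 1928 and 1921 against 3087 for chow, and fitting the 2 groups alone gave 924 for 500 ppm. For chow against 50 ppm, 53 became 144 by DESeq2, 19 and 14 by limma and 26 in the 2 groups alone. For cellulose, 11 became 219 by DESeq2, 26 with at least 10 counts, 51 without a filter and 23 in the 2 groups alone. Leaving out 1 library gave 1003 to 2333 calls for 50 ppm, 788 to 2204 for 500 ppm, 2151 to 3320 for chow, 4 to 63 for chow against 50 ppm and 0 to 212 for cellulose. The likeness of Prrg1 to Bglap3 was 0.849 on log2(TPM + 0.1), and that of Rps3a2 to Asic5 was 0.668 as a Spearman rho. The numbers of strains nearer to A/J kept within 1.5 times under all 3 alternatives.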
